A study of Mus musculus with 10 samples.

Results

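The genes described here are 36 cell cycle genes, 15 that act in DNA replication and its preparation and 21 that act in mitosis, out of 22180 genes measured. They were taken by symbol: a gene was read from the probe set annotated with its symbol alone, and from the one with the highest mean where a gene had several, which among these genes was the case for Rrm2. All 36 were measured, and their mean levels lay between percentile 69.1 (E2f1) and percentile 99.3 (Pcna) of all genes. The tissue was embryonic cortex of CD1 mice, collected between embryonic days 12 and 13. A 4E-T precipitate was on 3 arrays (numbered 1, 2 and 3 in the labels), an IgG precipitate on 3 (2, 3 and 4) and total input RNA on 4 (1 to 4). All groups are of the same strain, age and tissue, with no genetic change or treatment named, and 4E-T is a protein that binds the cap-binding factor eIF4E and represses translation. An IgG precipitate shows the RNA that comes down without the specific antibody, and the input shows the RNA present before precipitation. The design text speaks of biological replicates, but no label ties an array to an animal or litter, so p-values measure the spread between these arrays, which may be partly technical.

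Cells copy their DNA in S phase and divide in mitosis, and the genes needed for each are transcribed in waves. Replication genes are known targets of E2F factors, which switch them on as cells leave G1, while many mitotic genes are switched on later through promoter elements called CHR and CCAAT boxes. In the embryonic cortex the cycling cells are radial precursors and intermediate progenitors, and newborn neurons have left the cycle. In whole tissue, fewer cycling cells and less RNA per cell cannot be told apart.

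Promoter windows from RefSeq (GRCm38.p6), from 250 bases before to 50 bases after a gene's start, were at hand for 30 of the 36 genes. There were none for Mcm4, Gmnn, Ccna2, Aurkb, Kif20a and Tpx2. The windows of 4 genes are printed because these genes were higher or lower in a precipitate: Cdc6 and Tyms act in replication, Top2a and Cdca8 in mitosis, and in each pair the first was higher and the second lower in 4E-T than in input. Capitals mark matches to an E2F pattern (TTTNNCGC), the CHR (TTTGAA) and the CCAAT box (CCAAT), searched on both strands, and each window is written 5′ to 3′ along its gene. Cdc6 lies in the window chr11:98907901-98908200 on the plus strand, Tyms in chr5:30073576-30073875, Top2a in chr11:99024140-99024439 and Cdca8 in chr4:124936868-124937167, these last on the minus strand.
Cdc6: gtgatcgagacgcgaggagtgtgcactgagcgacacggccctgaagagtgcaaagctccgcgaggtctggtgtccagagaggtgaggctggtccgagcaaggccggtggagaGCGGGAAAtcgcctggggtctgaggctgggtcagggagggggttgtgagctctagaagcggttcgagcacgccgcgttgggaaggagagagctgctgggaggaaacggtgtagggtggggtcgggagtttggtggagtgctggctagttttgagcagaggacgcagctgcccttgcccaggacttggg
Tyms: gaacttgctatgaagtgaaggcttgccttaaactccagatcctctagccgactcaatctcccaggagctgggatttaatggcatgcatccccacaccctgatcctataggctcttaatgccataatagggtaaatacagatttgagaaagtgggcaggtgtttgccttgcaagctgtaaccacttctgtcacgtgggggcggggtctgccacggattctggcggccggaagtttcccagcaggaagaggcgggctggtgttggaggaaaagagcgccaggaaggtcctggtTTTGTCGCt
Top2a: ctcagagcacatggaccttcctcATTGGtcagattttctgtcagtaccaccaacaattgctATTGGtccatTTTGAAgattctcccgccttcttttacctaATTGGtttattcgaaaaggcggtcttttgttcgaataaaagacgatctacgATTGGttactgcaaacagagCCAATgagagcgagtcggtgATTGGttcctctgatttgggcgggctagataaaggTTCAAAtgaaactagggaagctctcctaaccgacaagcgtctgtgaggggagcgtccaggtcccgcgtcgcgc
Cdca8: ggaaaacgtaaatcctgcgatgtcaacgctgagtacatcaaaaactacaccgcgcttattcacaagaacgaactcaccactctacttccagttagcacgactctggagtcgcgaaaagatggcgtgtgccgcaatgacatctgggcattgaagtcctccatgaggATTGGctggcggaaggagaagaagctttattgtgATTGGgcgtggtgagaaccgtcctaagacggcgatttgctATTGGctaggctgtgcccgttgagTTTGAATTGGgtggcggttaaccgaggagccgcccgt
The Cdc6 window held 1 E2F match, read on the opposite strand, whose first base lay 138 bases upstream of the start that the window uses. The annotated span of Cdc6 begins earlier, at 98907709, so this window and its match lie inside the gene's span. The Tyms window held 1 E2F match, 42 bases downstream. Top2a had 2 CHR matches, 179 and 23 bases upstream, and 6 CCAAT matches, while Cdca8 had 1 CHR match, 14 bases downstream, that overlaps 1 of its 4 CCAAT matches.

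The sets of genes differed in the motifs their windows held. The E2F pattern stood in 7 of 13 replication genes (53.8%) and 1 of 17 mitotic genes (5.9%), against 7.2% of 16990 genes on the array with a window and 6.3% of 20611 windows. CHR stood in 1 of 13 replication genes (7.7%) and 13 of 17 mitotic genes (76.5%), against 17.8% of those genes and 15.4% of windows. CCAAT stood in 8 of 13 (61.5%) and 15 of 17 (88.2%), against 41.6% of genes and 37.7% of windows. A total of 2 forms of the E2F pattern were tried. The second, in which both middle bases are C or G, was added after the first counts had been seen, and it stood in 6 of 13 replication genes (46.2%), 1 of 17 mitotic genes (5.9%), 3.3% of genes and 2.9% of windows. The Tyms match is not in this narrower form. Of the 8 genes higher in 4E-T than in IgG, 6 had a window, and 2 of these held the E2F pattern, 2 CHR and 4 CCAAT. Of the 27 that were neither higher nor lower, 23 had a window, and 5 held the E2F pattern, 12 CHR and 19 CCAAT. A match is a match of letters and no evidence of binding.

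Array medians stood at 3.52 for 4E-T 1 and 3.54 for input 1, whereas the remaining 8 arrays had medians from 4.33 to 4.54. That pair, called the lower set here, also held equal values at 7.52% of probe sets, and no IgG array belongs to it. Differences therefore come from a limma fit over all genes with a term for the lower set beside the group, are given on the log2 scale as difference ± SE, and rest on 3 4E-T, 3 IgG and 4 input arrays. A gene was called higher or lower at a Benjamini-Hochberg adjusted p under 0.05 over the 22180 genes. For the 36 genes, values from the fit with group alone are given beside the calls. Counts at an unadjusted p under 0.05 are given without the share of all genes at that threshold. They therefore cannot be set against the array as a whole.

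The comparison of 4E-T with IgG asks which RNAs were enriched with 4E-T beyond unspecific precipitation. Of the 36 genes, 8 were higher in 4E-T and 1 was lower, where 7.57% and 2.92% of all genes were called higher and lower. The higher genes were Cdc6, Ccne1 and Mcm7 of the replication genes and Aurkb, Ttk, Kif20a, Cenpe and Top2a of the mitotic genes, and the lower one was Tyms. Among the 11090 genes above the median level, a range in which all 36 lie, 19.5% were called higher and 6.6% lower, and in that fit 9 of the 36 were higher and 2 lower. With group alone 2 of the 36 were higher (Cdc6 and Aurkb) and 0 lower, against 0.708% and 0.64% of all genes. At an unadjusted p under 0.05 in limma 9 were higher and 1 lower, a threshold to which these shares do not apply. Leaving out 4E-T 2 lowered the count of higher genes to 0 (limma), 4E-T 3 to 1, IgG 4 to 3, and IgG 3, input 2 or input 3 to 5.

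**Figure D1:**
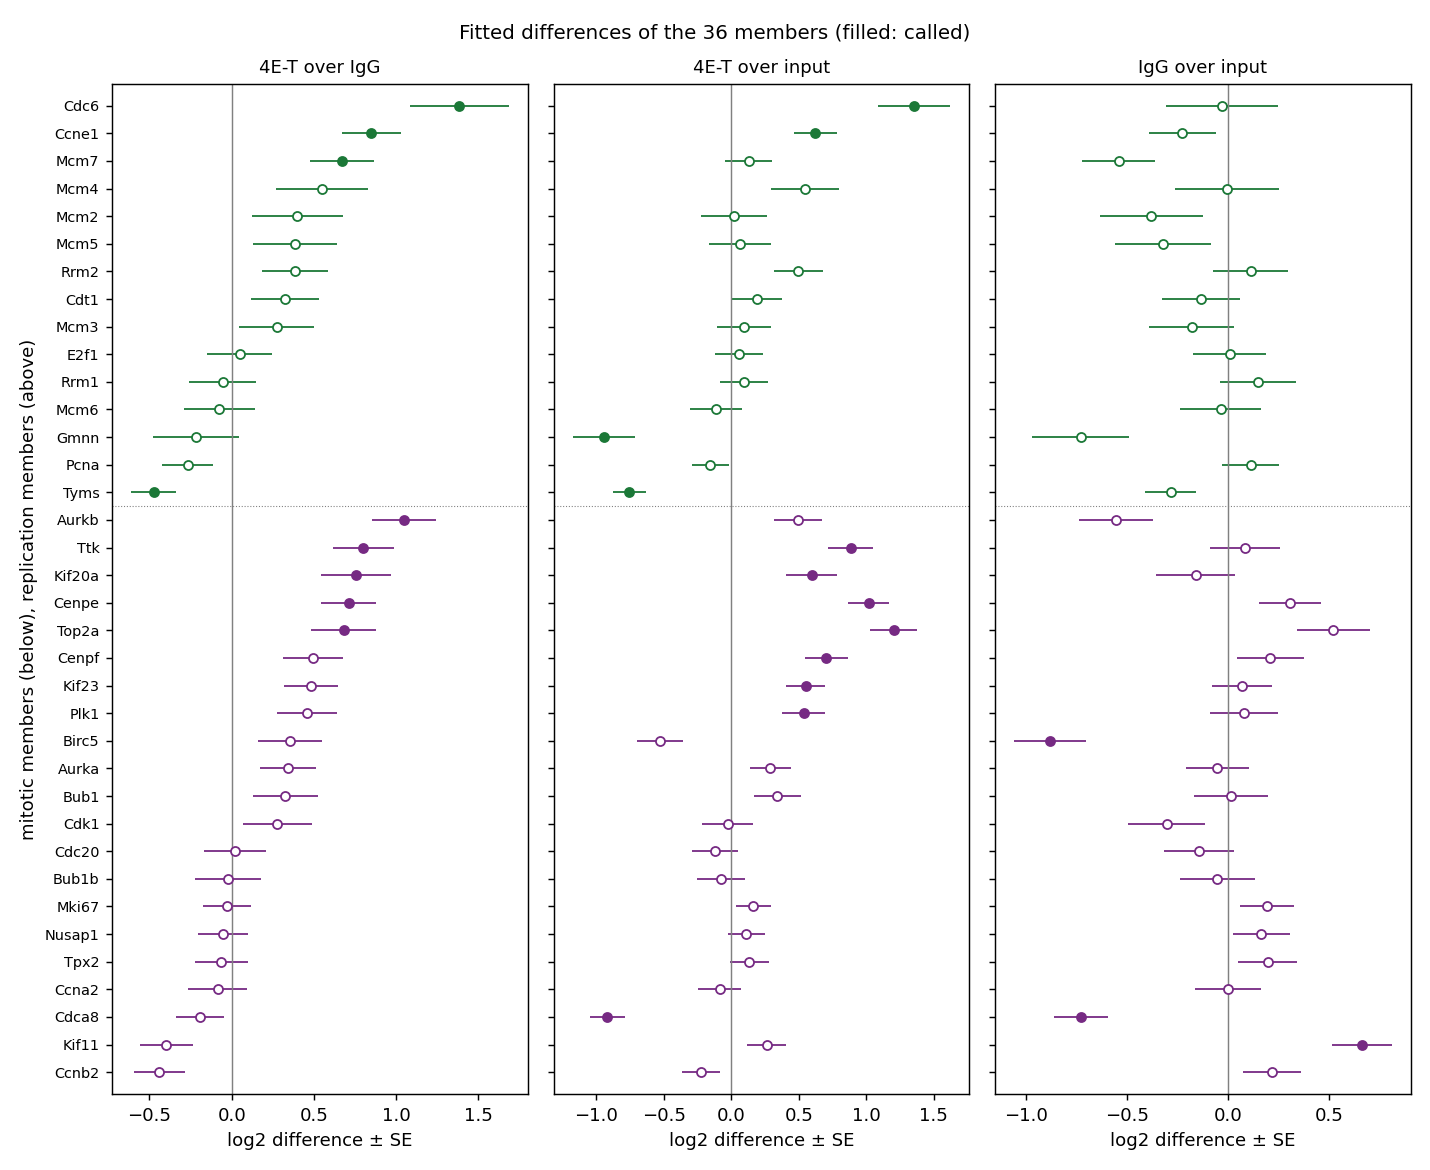
Fitted log2 differences ± SE of the 36 genes in the 3 comparisons, with replication genes above the dotted line and mitotic genes below it, each ordered by 4E-T over IgG. Filled points are called, and in the first panel 8 lie to the right of 0 and 1, Tyms, to the left.

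Among the genes that license replication origins, Cdc6, which loads the MCM helicase, had the highest difference of the 36. Cdc6 lay at 7.39, 7.82 and 7.67 on 4E-T arrays 1, 2 and 3, at 6.77, 6.28 and 5.61 on IgG arrays 2, 3 and 4, and at 6.58, 6.55, 6.13 and 5.81 on inputs 1 to 4. All 4E-T arrays were above all others, and IgG and input overlapped, with IgG 4 and input 4 lowest in their groups. The difference from IgG was 1.39 ± 0.30 (2.61-fold; limma adjusted p = 0.0134, and 0.0488 with group alone), and from input 1.35 ± 0.27 (limma adjusted p = 0.00382, 0.0161 with group alone). The call against IgG was lost without 4E-T 2 (limma adjusted p = 0.0888) or 4E-T 3 (0.0748).

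Mcm7 is a subunit of the MCM2-7 helicase. Mcm7 lay at 7.76, 8.15 and 7.96 on the 4E-T arrays, 7.67, 7.26 and 7.005 on the IgG arrays, and 7.92, 7.99, 7.70 and 7.74 on the inputs. The 4E-T arrays were all above the IgG arrays, and they overlapped the inputs, with 4E-T 2 above all of these. Its difference from IgG was 0.67 ± 0.20 (limma adjusted p = 0.0495, 0.248 with group alone) and from input 0.13 ± 0.17, while IgG over input was -0.54 ± 0.18 (limma adjusted p = 0.0607). The call was lost without any 1 array other than IgG 2, at limma adjusted p between 0.0534 and 0.237. The other MCM subunits were not called in any comparison, and their differences of 4E-T over IgG ran from -0.08 (Mcm6) to 0.55 (Mcm4).

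Geminin, encoded by Gmnn, inhibits the loading factor Cdt1. Gmnn lay at 7.59, 7.64 and 7.73 on the 4E-T arrays, 8.10, 8.09 and 7.36 on the IgG arrays, and 8.73, 8.77, 8.87 and 8.01 on the inputs. Every 4E-T array was below every input, and IgG spanned the 4E-T range and reached into that of the inputs. Gmnn was lower in 4E-T than in input by -0.94 ± 0.23 (limma adjusted p = 0.0130, 0.0548 with group alone) and did not pass against IgG (-0.21 ± 0.26). That call was lost without 4E-T 1 or input 1 (limma adjusted p = 0.0756) or 4E-T 2 (0.0560). Cdt1 was called in none of the comparisons (0.32 ± 0.21 over IgG).

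Of the S-phase entry genes, Ccne1 encodes cyclin E1, which drives cells from G1 into S phase. Ccne1 lay at 7.73, 7.39 and 7.35 on the 4E-T arrays, 6.65, 6.63 and 6.30 on the IgG arrays, and 7.05, 6.98, 6.91 and 6.42 on the inputs. The 4E-T arrays stood above both other groups, which overlapped. The difference was 0.85 ± 0.18 over IgG (limma adjusted p = 0.0121, 0.0760 with group alone) and 0.62 ± 0.16 over input (limma adjusted p = 0.0169, 0.124 with group alone). Against IgG the call was lost without 4E-T 2 (limma adjusted p = 0.0653) or 3 (0.0584), and against input without 4E-T 1 or input 1 (0.0719), 4E-T 2 (0.0717) or 4E-T 3 (0.0610). E2f1, a transcription factor of the E2F family, was not called (0.05 ± 0.20 over IgG), and its levels on 4E-T 1 and input 1, 5.47 and 5.51, were below all others.

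Of the genes for nucleotide supply and the fork, only Tyms was called in 4E-T over IgG, and it was lower. Tyms encodes thymidylate synthase, which makes dTMP. Tyms lay at 7.23, 6.57 and 6.32 on the 4E-T arrays, 6.99, 6.91 and 6.87 on the IgG arrays, and 7.98, 7.28, 7.15 and 7.19 on the inputs. 4E-T 2 and 3 were below all other arrays, whereas 4E-T 1, of the lower set, was above all IgG arrays. Tyms was lower in 4E-T than in IgG by -0.47 ± 0.14 (limma adjusted p = 0.0482, and 0.747 with group alone) and than in input by -0.76 ± 0.12 (limma adjusted p = 0.00108, 0.186 with group alone). The first call was lost without any 1 of the 10 arrays, at limma adjusted p from 0.0632 to 0.248, and the second in no such case. Tyms shares sequence with its pseudogene Tyms-ps, so its level is uncertain.

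Pcna, the sliding clamp of the polymerases, lay at 10.32, 10.43 and 10.54 on the 4E-T arrays, 10.92, 10.82 and 10.47 on the IgG arrays, and 10.52, 10.68, 10.65 and 10.53 on the inputs. The 3 groups overlapped and the difference over IgG was -0.27 ± 0.16, not called. Rrm1 and Rrm2, the subunits of ribonucleotide reductase, stood at -0.05 ± 0.20 and 0.38 ± 0.20 over IgG and were not called either.

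**Figure D2:**
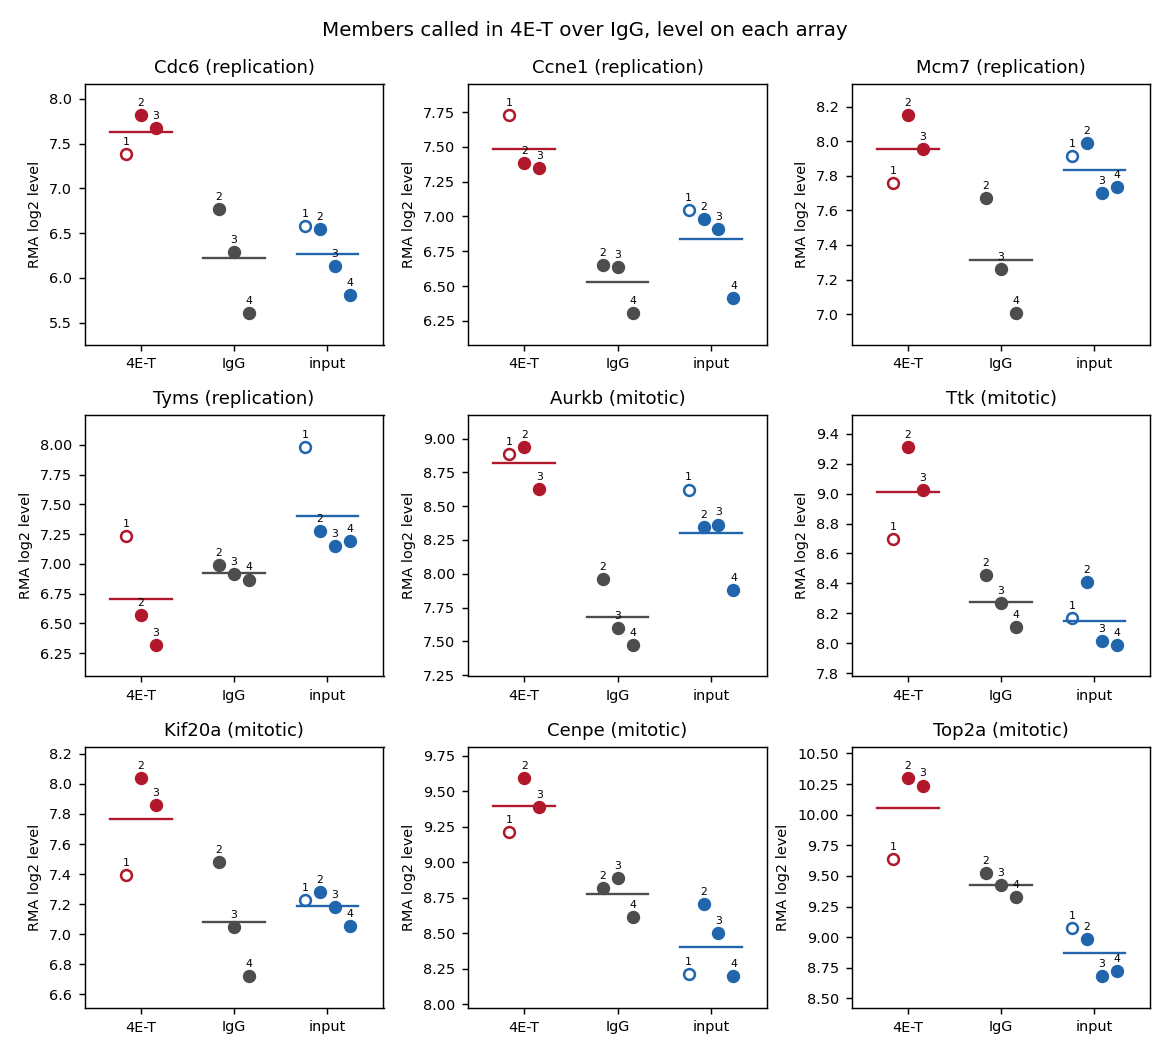
RMA log2 level on each array of the 9 genes called in 4E-T over IgG, by group, with the label's array number above each point, open points for the lower set and a line at the group mean. Cdc6 on the 4E-T arrays, 7.39 to 7.82, stands above all IgG and input arrays, whereas Tyms on 4E-T 1, at 7.23, stands above the IgG arrays although its fitted difference is negative.

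Among mitotic kinases and the chromosomal passenger complex, which corrects attachments of chromosomes to the spindle, the subunits did not share 1 pattern. Aurkb, its kinase, lay at 8.89, 8.94 and 8.63 on the 4E-T arrays, 7.96, 7.60 and 7.47 on the IgG arrays, and 8.62, 8.35, 8.36 and 7.88 on the inputs. The 4E-T arrays were above all others, narrowly so for 4E-T 3 against input 1. The difference was 1.05 ± 0.20 over IgG (2.07-fold; limma adjusted p = 0.00652, 0.0425 with group alone), lost without 4E-T 2 (0.0555), and 0.49 ± 0.18 over input, not called (limma adjusted p = 0.0730).

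Cdca8 encodes borealin, which targets the complex to chromosomes. Cdca8 lay at 7.62, 7.48 and 7.45 on the 4E-T arrays, 7.72, 7.71 and 7.62 on the IgG arrays, and 8.41, 8.50, 8.58 and 8.22 on the inputs. Both precipitates were below all inputs, by -0.92 ± 0.13 for 4E-T (limma adjusted p = 5.05e-04) and -0.73 ± 0.13 for IgG (limma adjusted p = 0.00292), and both calls held with group alone (0.0134 and 0.0380). 4E-T over IgG was -0.19 ± 0.15, not called.

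Birc5 encodes survivin, a further subunit. Birc5 lay at 9.004, 9.22 and 9.22 on the 4E-T arrays, 9.21, 8.95 and 8.58 on the IgG arrays, and 9.35, 10.02, 9.90 and 9.55 on the inputs. Again both precipitates were below all inputs. The call was made for IgG (-0.88 ± 0.18; limma adjusted p = 0.00515, 0.0739 with group alone) and not for 4E-T (-0.53 ± 0.17; limma adjusted p = 0.0515), which passed with the replicate number as a block (-0.63; limma adjusted p = 0.00973). Both comparisons share the input arrays.

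Plk1, a kinase of mitotic entry and exit, lay at 9.02, 9.08 and 8.97 on the 4E-T arrays, 8.79, 8.72 and 8.24 on the IgG arrays, and 8.42, 8.74, 8.46 and 8.35 on the inputs. The 4E-T arrays were above all others. Plk1 was called over input (0.54 ± 0.16; limma adjusted p = 0.0360, 0.196 with group alone) and not over IgG (0.46 ± 0.18; limma adjusted p = 0.145). The call over input was lost without 4E-T 1, 2 or 3 or input 1, 3 or 4. Aurka, the spindle pole kinase, was called nowhere (0.34 ± 0.17 over IgG).

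Of the spindle checkpoint, which holds division until chromosomes are attached, Ttk encodes the kinase MPS1. Ttk lay at 8.70, 9.31 and 9.03 on the 4E-T arrays, 8.46, 8.27 and 8.11 on the IgG arrays, and 8.17, 8.41, 8.01 and 7.99 on the inputs. The 4E-T arrays were above all others, with the other groups overlapping. The difference was 0.80 ± 0.19 over IgG (limma adjusted p = 0.0185, 0.173 with group alone) and 0.88 ± 0.17 over input (limma adjusted p = 0.00286, 0.0345 with group alone). The first was lost without 4E-T 2 (limma adjusted p = 0.130), 4E-T 3 (0.0738) or IgG 4 (0.0504). The checkpoint genes Bub1 and Bub1b and the checkpoint's target Cdc20 were not called, at 0.33, -0.02 and 0.02 over IgG.

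Among the motor genes, Kif20a encodes a kinesin of cytokinesis. Kif20a lay at 7.40, 8.04 and 7.86 on the 4E-T arrays, 7.48, 7.05 and 6.72 on the IgG arrays, and 7.23, 7.28, 7.18 and 7.05 on the inputs. 4E-T 1 was below IgG 2, so these groups overlapped, and the 4E-T arrays were above all inputs. It was called over IgG (0.76 ± 0.21; limma adjusted p = 0.0418, 0.259 with group alone) and input (0.60 ± 0.19; limma adjusted p = 0.0450, 0.217 with group alone). Each of these calls was lost without any 1 of 6 arrays, 4E-T 2 and 3 among them.

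Kif23, a kinesin of the spindle midzone, lay at 8.13, 8.76 and 8.81 on the 4E-T arrays, 8.48, 8.24 and 7.998 on the IgG arrays, and 7.83, 8.18, 8.09 and 8.12 on the inputs. 4E-T 1 fell within both other groups. Kif23 was called over input (0.55 ± 0.14; limma adjusted p = 0.0176, 0.277 with group alone), lost without 4E-T 2 (0.0827) or 3 (0.0999), and not over IgG (0.48 ± 0.16; limma adjusted p = 0.0834).

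Kif11 encodes the kinesin that pushes spindle poles apart. Kif11 lay at 8.49, 8.88 and 8.93 on the 4E-T arrays, 9.38, 9.30 and 9.01 on the IgG arrays, and 8.52, 8.61, 8.56 and 8.40 on the inputs. The IgG arrays were above all others. It was higher in IgG than in input by 0.66 ± 0.15 (limma adjusted p = 0.00951, 0.0659 with group alone), and 4E-T over IgG was -0.40 ± 0.16, not called (limma adjusted p = 0.156). Tpx2 and Nusap1, which organise spindle microtubules, were called nowhere, at -0.06 and -0.05 over IgG.

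**Figure D3:**
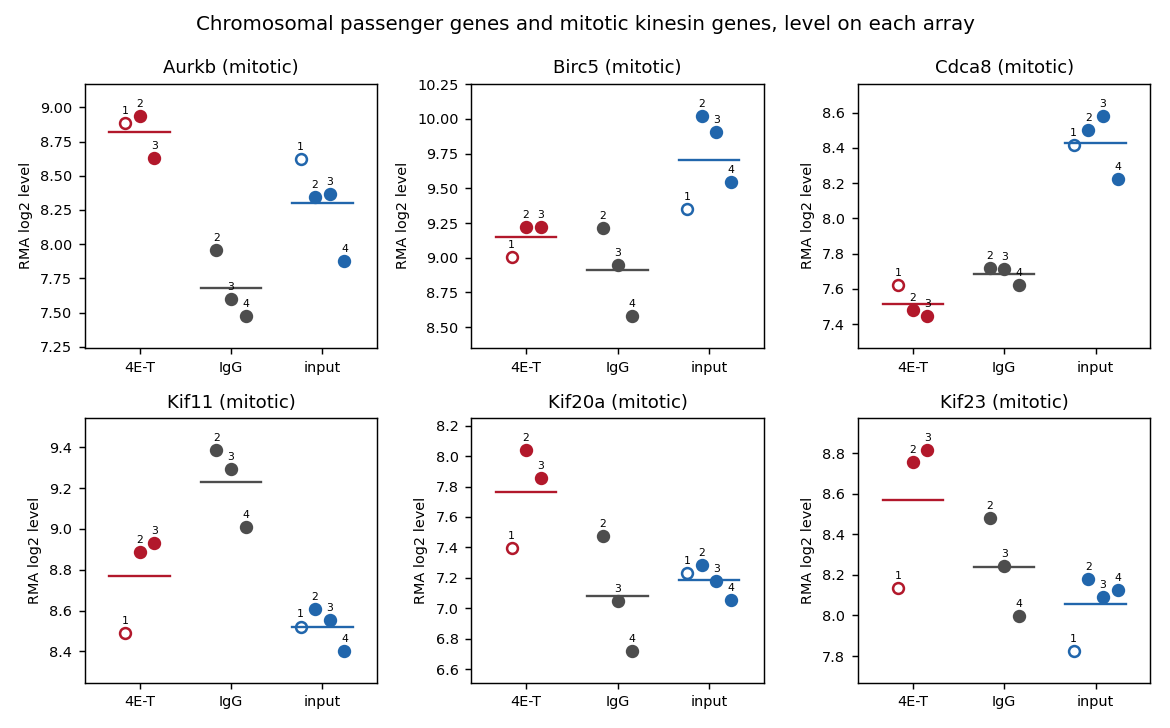
RMA log2 level on each array of 3 chromosomal passenger genes (upper panels) and 3 mitotic kinesin genes (lower panels), by group, with the label's array number above each point, open points for the lower set and a line at the group mean. Aurkb was highest in 4E-T, Birc5 and Cdca8 in input and Kif11 in IgG.

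Both kinetochore genes were higher in 4E-T than in input. Cenpe, the kinetochore kinesin, lay at 9.21, 9.59 and 9.39 on the 4E-T arrays, 8.82, 8.89 and 8.61 on the IgG arrays, and 8.21, 8.70, 8.50 and 8.20 on the inputs. The 4E-T arrays were above all others. The difference was 0.71 ± 0.17 over IgG (limma adjusted p = 0.0190, 0.246 with group alone) and 1.02 ± 0.15 over input (limma adjusted p = 5.94e-04, 0.0153 with group alone). The first was lost without 4E-T 2 (limma adjusted p = 0.114), 4E-T 3 (0.0624) or IgG 4 (0.0508).

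Cenpf, another kinetochore protein, lay at 9.85, 9.45 and 9.16 on the 4E-T arrays, 9.07, 8.95 and 8.63 on the IgG arrays, and 8.86, 8.86, 8.77 and 8.54 on the inputs. The 4E-T arrays were above all others here too. Cenpf was called over input (0.70 ± 0.16; limma adjusted p = 0.00837, 0.0796 with group alone), lost without 4E-T 1 or input 1 (0.0595) or 4E-T 2 (0.0524), and not over IgG (0.50 ± 0.18; limma adjusted p = 0.110).

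Top2a encodes topoisomerase II alpha, which untangles sister chromosomes. Top2a lay at 9.64, 10.30 and 10.24 on the 4E-T arrays, 9.52, 9.42 and 9.33 on the IgG arrays, and 9.08, 8.99, 8.68 and 8.72 on the inputs. The groups were ordered 4E-T, IgG and input with no overlap. The difference was 1.20 ± 0.18 over input (limma adjusted p = 5.92e-04, 0.00884 with group alone) and 0.68 ± 0.20 over IgG (limma adjusted p = 0.0483, 0.267 with group alone). The call over IgG was lost with the replicate block (0.0761) and without 4E-T 2 or 3, any 1 IgG array, or input 2 or 3 (0.0532 to 0.239). Mki67, the proliferation marker Ki-67, was not called in any comparison (-0.03 ± 0.15 over IgG).

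The cyclins and Cdk1, which drive entry into mitosis, were called in none of the 3 comparisons. Ccnb2, cyclin B2, lay at 9.18, 9.48 and 9.64 on the 4E-T arrays, 9.99, 10.16 and 9.75 on the IgG arrays, and 9.53, 9.84, 9.75 and 9.61 on the inputs. All 4E-T arrays were below all IgG arrays. The difference was -0.44 ± 0.16 (limma adjusted p = 0.102), and it passed with the replicate block (-0.51; limma adjusted p = 0.0480). Ccna2 and Cdk1 stood at -0.09 and 0.28 over IgG.

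Groups that did not overlap over the 10 arrays give a count without a model. In 4E-T over IgG 11 of the 36 genes were higher on every 4E-T array and 3 lower, against 7.02% and 14.5% of all genes. In 4E-T over input these counts were 12 and 3, against 6.45% and 8.44%, and in IgG over input 3 and 4, against 14.1% and 8.23%. These shares cover genes of all levels, whereas all 36 genes lie above the median level, a range for which no such share was counted. The shares also depend on the lower set, of which no IgG array is part. Over the 8 arrays outside it, 16 were higher and 4 lower in 4E-T over IgG, against 23% and 15.1% of all genes. In 4E-T over input the counts were then 18 and 4, against 25.5% and 20.2%, and in IgG over input 3 and 4, against 14.3% and 16.3%.

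Against input, 9 of the 36 genes were higher in 4E-T and 3 lower, where 10.4% and 8.86% of all genes were called. The higher genes were Cdc6, Ccne1, Plk1, Ttk, Kif20a, Kif23, Cenpe, Cenpf and Top2a, and the lower ones Gmnn, Tyms and Cdca8. Among genes above the median level the shares called were 23.9% and 20%, with 11 of the 36 higher and 4 lower. With group alone 4 were higher (Cdc6, Ttk, Cenpe and Top2a) and 1 lower (Cdca8), against 2.56% and 3.58% of all genes. The count of higher genes was 4 without 4E-T 2 and 5 without 4E-T 3. With the replicate block 9 were higher and 4 lower, Birc5 being the addition.

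Between IgG and input, neither made with the 4E-T antibody, 1 of the 36 was higher (Kif11) and 2 lower (Birc5 and Cdca8), where 6.14% and 10.5% of all genes were called. Among genes above the median level the shares called were 13.5% and 23.9%, with 2 of the 36 higher and 5 lower. In the fit with the term for the lower set, none of the 15 replication genes was called by limma in either direction. At an unadjusted p under 0.05 in that fit, 0 were higher and 3 lower. With the replicate block 1 of the 36 was higher and 5 lower, where 4120 of all genes were called in either direction. With group alone 0 were higher and 1 lower (Cdca8), against 1.45% and 3.99%. The comparisons of 4E-T and of IgG with input use the same input arrays, and those of 4E-T and of input with IgG the same IgG arrays.

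Replication and mitotic genes did not separate in 4E-T over IgG. The median difference was 0.32 for the replication genes (3 higher, 1 lower of 15) and 0.33 for the mitotic genes (5 higher, 0 lower of 21), beside 0.03 for all genes tested. Over input the medians were 0.09 (2 higher, 2 lower) and 0.26 (7 higher, 1 lower), beside 0.04, and for IgG over input -0.14 and 0.07, beside 0.03. These medians have no test, and with group alone that of all genes in 4E-T over IgG was -0.19. On the arrays themselves, the mean level of the mitotic genes exceeded that of the replication genes by 0.86 to 1.02 on the 4E-T arrays, 0.93 to 1.20 on the IgG arrays and 0.61 to 0.99 on the inputs, so the groups overlapped.

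**Figure D4:**
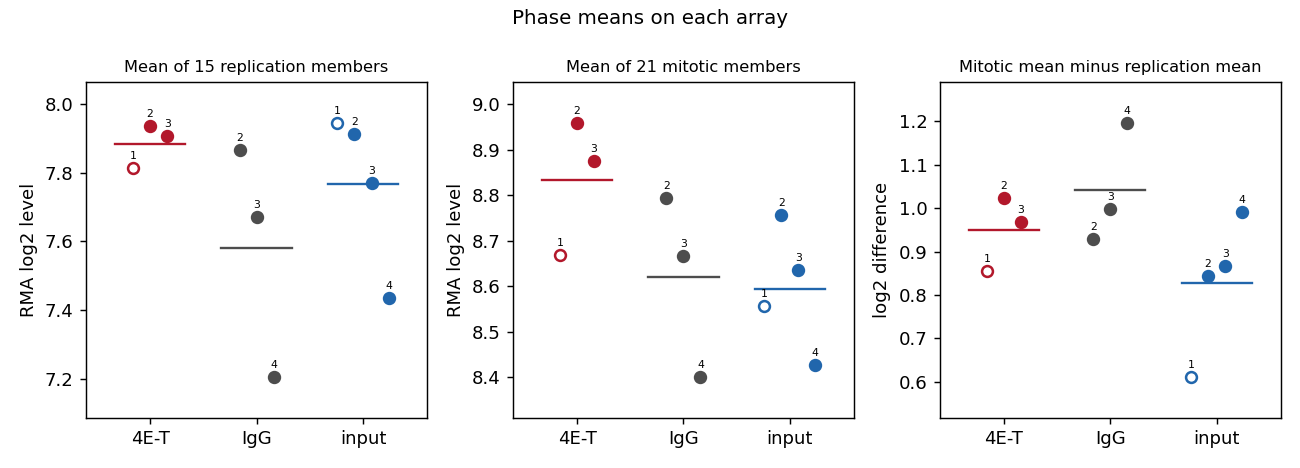
Mean RMA log2 level of the 15 replication genes, of the 21 mitotic genes and the mitotic mean minus the replication mean on each array, by group, with the label's array number above each point, open points for the lower set and a line at the group mean. IgG 4 has the lowest replication mean, 7.21, and input 4 the lowest of the inputs, 7.43.

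IgG 4 and input 4, which have no 4E-T array of the same number, were lowest in their groups for both phase means. The mean of 10 neuron markers was highest in its group on these same arrays, at 8.99 on IgG 4 and 9.07 on input 4, against 8.64 to 8.85 on the other IgG arrays and 8.32 to 8.85 on the other inputs. Its part in the results was not tested. The arrays numbered 1 to 3 alone were an alternative chosen after the data had been seen. Over them, 5 of the 36 genes were higher in 4E-T than in IgG (Cdc6, Ccne1, Aurkb, Ttk and Cenpe) and 0 lower. Of all genes, 2132 were called in either direction in that fit, a count that is not split by direction here. At an unadjusted p under 0.05 in limma, 9 of the 36 were higher and 5 lower. The median of the 36 was 0.11, given without that of all genes. Between arrays of equal number, 21 of the 36 were higher in 4E-T than in IgG for number 2 and 22 for number 3, or 58.3% and 61.1%, against 55.6% and 52.5% of all genes. The median differences of the 36 were 0.049 for number 2 and 0.211 for number 3, against 0.058 and 0.026 for all genes. In 4E-T over input, the replication medians were -0.156, 0.073 and 0.203 for numbers 1, 2 and 3, number 1 being the lower set. The mitotic medians were 0, 0.211 and 0.265, and those of all genes 0, 0.058 and 0.018.

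Other genes of the same processes were read from lists of symbols. Of 43 other replication genes, 8 were higher in 4E-T than in IgG and 0 lower (12 and 2 at an unadjusted p under 0.05 in limma), with a median of 0.30. That is 18.6%, beside 7.57% of all genes and 19.5% of genes above the median level. The highest were Uhrf1, a maintenance factor of DNA methylation (1.11), Gins2 of the replicative helicase (1.02), Pold2 of DNA polymerase delta (0.95) and Chaf1b of a histone chaperone (0.88). In IgG over input 14 of these 43 (32.6%) were lower, beside 10.5% of all genes and 23.9% of genes above the median level, and 2 were higher. Pold2 (-1.68) and Gins2 (-1.57) were among the lower ones, while Pold2 was also lower in 4E-T than in input (-0.74; limma adjusted p = 0.0252).

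Of 55 other mitotic genes, 8 were higher in 4E-T than in IgG (14.5%, beside the same 7.57% and 19.5%) and 1 lower, with a median of 0.21. The highest were Cenpn of the centromere (1.20), Cdca2 (0.95), Anln, the cytokinesis protein anillin (0.86), and Cdca5, the cohesin regulator sororin (0.84), and the lower one was Kntc1 of the kinetochore (-0.79). Of 29 regulators of G1, 8 were higher (27.6%) and 1 lower, with a median of 0.25. Ccnd1, cyclin D1 (1.52), the repressive E2F factors E2f8 (1.26) and E2f7 (1.02), and the phosphatase gene Cdc25a (1.12) were highest, and Ccnd2, cyclin D2, was lower (-0.59). With group alone, limma called 0 genes of these 3 lists in 4E-T over IgG, while at an unadjusted p under 0.05 there were 11 higher and 1 lower of the replication list, 14 and 4 of the mitotic list and 7 and 2 of the G1 list.

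**Figure D5:**
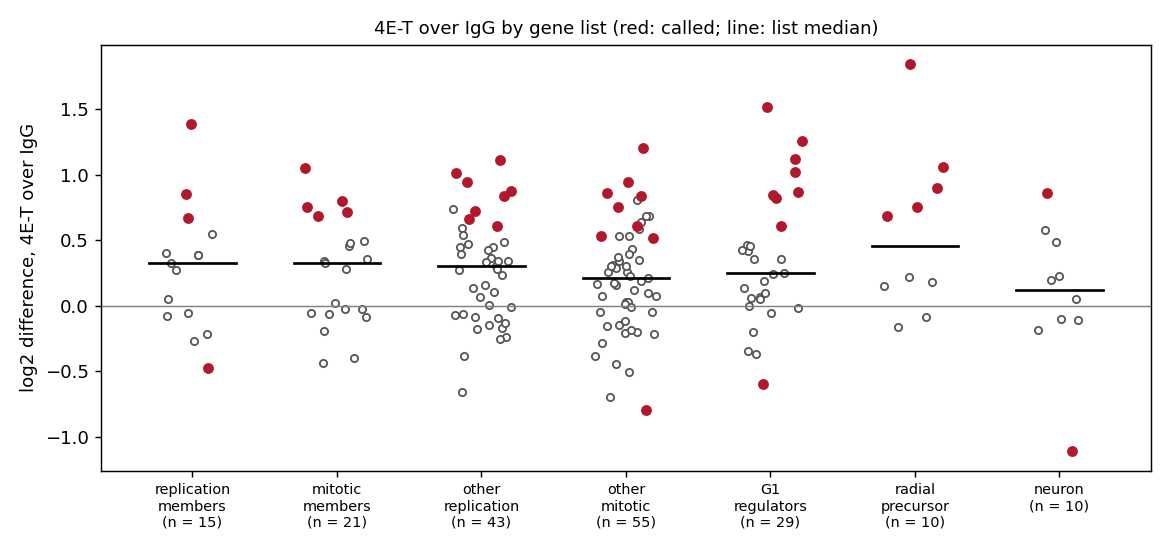
Fitted log2 difference of 4E-T over IgG for each gene of 7 lists, with called genes in red and a line at each list's median. The medians of the replication and mitotic genes, 0.32 and 0.33, lie close together, and the radial precursor markers reach the highest value, 1.85 for Hes5.

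Cell type markers were read in the same way. Of 10 markers of radial precursors, the cycling stem cells of the cortex, 5 were higher in 4E-T than in IgG and 0 lower, with list means of 8.47 to 8.76 on the 4E-T arrays, 8.17 to 8.32 on the IgG arrays and 7.88 to 8.36 on the inputs. Of 6 markers of intermediate progenitors, 4 were higher and 0 lower, and of 10 neuron markers 1 was higher (Neurod1, 0.86) and 1 lower (Dcx, -1.11). With group alone limma called 0 of the 10 radial precursor markers (4 higher and 0 lower at an unadjusted p under 0.05) and 0 of the 6 intermediate progenitor markers (2 and 0). Dcx kept its call and Neurod1 did not (limma adjusted p = 0.0383 and 0.621). The shares called higher with the set term, 50% of radial precursor and 66.7% of intermediate progenitor markers, stand beside 7.57% of all genes and 19.5% of those above the median level. Over input, Sox2, Nes, Hes1 and Hes5 were called higher in 4E-T, and Vim (-0.76) and Hopx (-0.56) lower. Of the intermediate progenitor markers, Neurog2, Btg2, Dll1 and Mfng were higher over input. Gadd45g was lower than input in both 4E-T (-0.95) and IgG (-1.74). Endothelial markers had 1 of 8 higher (Kdr, 1.48; limma adjusted p = 0.0305 with group alone), meningeal and mesenchymal markers 1 of 8 (Foxc1, 1.42; 0.414 with group alone), and the 5 erythroid and 8 microglia markers had 0 called by limma, with 2 erythroid markers higher, and 1 microglia marker higher and 1 lower, at an unadjusted p under 0.05. List means on single arrays were 4.25 to 5.17 for endothelial, 6.53 to 7.79 for erythroid, 4.10 to 5.24 for microglia and 3.49 to 5.03 for meningeal and mesenchymal markers, and the part of these cell types in the results was not tested.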

How the data were processed

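The 10 arrays were of the type Affymetrix Mouse Gene 2.0 ST. RNA was precipitated with the Magna RIP kit, amplified with a NuGEN Pico kit and biotin-labelled, per the labels' protocols. The deposited values are log2 intensities which the authors made with RMA, per the submitters' processing notes, which also name Affymetrix Expression Console. Versions and the genome build are not given in the sources used here. Of 41345 probe sets, 23521 had 1 symbol, 1814 several and 16010 none in the platform annotation. Only those with 1 symbol were used, 1 per gene (22180 genes), which left out further probe sets of Mcm7, Tyms, Nusap1 and Top2a. RMA levels are relative, and these values do not lie on 1 common distribution (the lower set, described with the data). Precision is limited by how many arrays there are.

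Tests used limma 3.58.1 (lmFit and eBayes, R 4.3.3) with terms for group and for the lower set, the arrays whose median lay more than 0.5 below the median of the array medians. The genes and lists were chosen with earlier results of these data known. Values on each array are given for genes called in 4E-T over IgG, genes called over input in the same direction as over IgG, and the 2 highest and 2 lowest of each phase, and Birc5 was added after its values were seen. From other lists, called genes are named, at most 4 from each end. Alternatives were group alone, the 8 arrays outside the lower set, median centring, quantile normalization, the replicate block, genes above the median level, the mean of probe sets, a trended prior, each array left out, and arrays numbered 1 to 3. Deviations from group means of 4E-T and input arrays with equal numbers, which come from the labels, correlated at 0.623, 0.24 and 0.277, all above 0.1, which met the criterion for pairs. The first pair is also the lower set, and outside it 4E-T and input arrays of unlike number correlated as much (0.186 to 0.269). With the set term the residuals of pairs 2 and 3 correlated at -0.037 and -0.098. A pairing of 4E-T with input by number is therefore not shown beyond the lower set. IgG and input (-0.023, 0.08 and 0.318) did not meet the criterion, and 4E-T and IgG share only 2 numbers (-0.067 and 0.022). With the set term, however, residuals of IgG and input arrays of equal number correlated at 0.09, 0.091 and 0.27. Those of unlike number outside the lower set ran from -0.166 to 0.077. The main fit has no term for the number, and the replicate block is the alternative that has one. The plots were made in Python 3.11.15 with matplotlib 3.10.9.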

Additional observations from a re-analysis of the deposited data

Results flagged for a closer look

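Among the 4 inputs, 3 of the 36 genes had 1 array apart from the other 3 by more than Dixon's 95% critical value for the gap over the range, and chance gives about 1 such gene in 20. Gmnn was at 8.01 on input 4, against 8.73 to 8.87 on the others (ratio 0.836). Tyms was at 7.983 on input 1, of the lower set, against 7.15 to 7.28 (ratio 0.85). Aurka was at 8.142 on input 2, against 8.04 to 8.05 (ratio 0.857), a gap small in size.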

How the results depend on the processing

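With group alone, 4E-T over IgG had 2 higher and 0 lower of the 36 genes and 299 of all genes called, 4E-T over input 4, 1 and 1361, and IgG over input 0, 1 and 1206. Median centring gave 4, 0 and 1510 for 4E-T over IgG, 4, 1 and 2662 for 4E-T over input, and 0 higher for IgG over input, and quantile normalization 4 and 0 for 4E-T over IgG. The replication median minus the mitotic median in 4E-T over IgG was -0.001 in the report's fit. It turned to 0.0889 with group alone and with median centring. Over arrays numbered 1 to 3 it was -0.101, with 5 of the 36 genes higher, 0 lower and 2132 of all genes called. In the 8 arrays outside the lower set, the lower count for 4E-T over IgG was 0, the higher count for IgG over input 2, and the phase difference over input was -0.0546. With the replicate block the lower counts were 2 for 4E-T over IgG and 5 for IgG over input. Genes above the median level and a trended prior each gave 2 lower for 4E-T over IgG, and 2 higher and 5 lower in IgG than in input. Leaving out 1 array gave, for 4E-T over IgG, 0 to 9 higher, 0 to 0 lower, 930 to 2268 genes in all and phase differences of -0.125 to 0.0677. For 4E-T over input it gave 4 to 9, 2 to 4, 2703 to 4679 and -0.212 to -0.0546, and for IgG over input 1 to 2, 2 to 4, 2612 to 3471 and -0.283 to -0.0688. Without 4E-T 1 or input 1 the remaining array of the lower set is taken up by its own term. The block changed no other call of the 36 genes in 4E-T over input than that of Birc5. A second E2F pattern was tried after the first counts had been seen, as given with the promoters.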
